A study of Mus musculus with 6 samples.

Results

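The genes Cyp3a11, Cyp3a13, Cyp3a16, Cyp3a25, Cyp3a41a and Cyp3a44, 6 members of the mouse Cyp3a family of cytochrome P450 enzymes, were followed in liver RNA of mice given sulfasalazine. Each was taken as the row of the deposited expression table that bears its gene name and an Ensembl transcript, which gave 6 of the 42612 loci in the table. All 6 libraries came from liver of male ICR mice labelled 8 weeks old, ICR being an outbred stock, and all mice were dosed by oral gavage at 10 mL/kg for 4 weeks. The 3 control mice received 0.1% DMSO and the 3 treated mice received sulfasalazine (SASP), an anti-inflammatory drug, at 1000 mg/kg in the same vehicle. The study's title asks how sulfasalazine injures the mouse liver. The labels describe 10 mice per group and do not say how the 3 sequenced mice of each group were chosen. The groups at 250 and 500 mg/kg were not analysed here.

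Cyp3a enzymes sit in the endoplasmic reticulum and oxidize a wide range of drugs, steroids and bile acids. Their best known inducer is the pregnane X receptor (PXR, encoded by Nr1i2), a nuclear receptor that many drugs activate and that binds DNA as a heterodimer with the retinoid X receptor, at paired half-sites arranged as direct or everted repeats. The constitutive androstane receptor (CAR, Nr1i3) shares many targets with PXR. Cyp3a11 is the main Cyp3a enzyme of the adult mouse liver and is widely used as a PXR marker. Cyp3a41 and Cyp3a44 are known as female-biased in adult mouse liver, and Cyp3a16 is known from the fetal and newborn liver.

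All members but Cyp3a13 lie together on chromosome 5 (GRCm38). The cluster, with the other annotated Cyp3a genes Cyp3a41b, Cyp3a57 and Cyp3a59, holds 8 genes over 768.009 kb, and Cyp3a13 lies alone 7.42 Mb before it. Cyp3a11 was annotated at chr5:145854426-145879964 on the minus strand, Cyp3a41a at chr5:145694049-145720136, Cyp3a44 at chr5:145773983-145805874 and Cyp3a25 at chr5:145977194-146009618, all on that strand. RefSeq promoters (GRCm38.p6, 250 bases before to 50 after the start) were found for 6 of 6 members. The promoters of the 4 members that the results turn on are printed 5′ to 3′ on the minus strand, to show the PXR-type half-sites near the start sites. Capitals mark the half-sites AGTTCA and AGGTCA, searched on both strands, so that TGAACT and TGACCT are their reverse complements.
Cyp3a11, chr5:145879805-145880104: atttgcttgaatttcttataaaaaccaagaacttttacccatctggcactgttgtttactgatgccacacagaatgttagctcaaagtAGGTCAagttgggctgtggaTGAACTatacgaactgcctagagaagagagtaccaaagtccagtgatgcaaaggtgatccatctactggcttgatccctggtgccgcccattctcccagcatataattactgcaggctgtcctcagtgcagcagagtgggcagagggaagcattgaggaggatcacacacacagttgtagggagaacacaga
Cyp3a25, chr5:146009569-146009868: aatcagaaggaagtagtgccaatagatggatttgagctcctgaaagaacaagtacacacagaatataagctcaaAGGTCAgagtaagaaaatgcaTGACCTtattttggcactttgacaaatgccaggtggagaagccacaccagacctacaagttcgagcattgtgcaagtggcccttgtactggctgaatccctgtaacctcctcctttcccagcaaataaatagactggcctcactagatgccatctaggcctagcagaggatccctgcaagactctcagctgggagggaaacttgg
Cyp3a41a, chr5:145720087-145720386: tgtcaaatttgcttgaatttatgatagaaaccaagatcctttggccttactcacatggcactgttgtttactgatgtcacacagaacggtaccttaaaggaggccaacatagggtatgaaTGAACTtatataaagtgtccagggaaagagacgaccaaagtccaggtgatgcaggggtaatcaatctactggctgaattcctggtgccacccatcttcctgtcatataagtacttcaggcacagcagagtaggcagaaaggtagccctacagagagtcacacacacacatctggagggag
Cyp3a44, chr5:145805825-145806124: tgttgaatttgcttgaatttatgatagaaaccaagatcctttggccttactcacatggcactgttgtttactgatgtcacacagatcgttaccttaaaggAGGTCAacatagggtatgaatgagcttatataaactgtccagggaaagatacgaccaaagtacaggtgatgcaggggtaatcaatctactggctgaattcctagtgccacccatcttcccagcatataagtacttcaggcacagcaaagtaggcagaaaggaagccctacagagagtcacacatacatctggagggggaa
The Cyp3a11 promoter held AGGTCA starting at position -162 from the start site and the reverse complement of AGTTCA at -142. For Cyp3a11 the RefSeq start site lies inside the annotated gene given above and not at its end. These positions therefore depend on the start site used. Cyp3a25 held AGGTCA at -176 and its reverse complement at -155, a pair with close to the same placing. Cyp3a41a held 1 half-site, the reverse complement of AGTTCA at -130, and Cyp3a44 held AGGTCA at -150. No half-site was found in the Cyp3a13 or Cyp3a16 window. Of 32851 mouse promoters of the same length, 14.0% held AGTTCA and 16.3% held AGGTCA on either strand. Paired forms were searched as direct repeats with 3 bases between (AGTTCA or AGGTCA, then AGTTCA) and as everted repeats with 6 bases between (TGAACT, then AGTTCA or AGGTCA). The direct repeats were in 0 and 1 of the 32851 promoters and the everted ones in 2 and 0, in no case a Cyp3a promoter. The STAT-type motif TTCNNNGAA was in 8.30% of all promoters and in no Cyp3a promoter. Paired sites further upstream were not searched. The promoter of Cyp3a41a was 93.1% identical to that of Cyp3a44 and 72.4% identical to that of Cyp3a11, while those of Cyp3a11 and Cyp3a25 were 58.3% identical.

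Expression is given as FPKM, fragments scaled by transcript length and by the mapped fragments of the library. The steps between low FPKM values at loci with a single transcript gave an estimated depth of 0.678 of the deepest library in sulfasalazine mouse 2 and of 0.874 to 1 in the others. Only 29.9% to 37.9% of these low values in a library fell on such steps, so this is a rough estimate and no counting interval was formed from it. The fit across all loci called 2 of 11969 loci changed by sulfasalazine, both higher. Hepatocyte marker genes summed to 20758 to 25461 FPKM in the controls and to 21073 to 23102 in the treated mice. The 4 intestinal marker loci found summed to 13.6 to 18.0 FPKM in the controls and 12.2 to 22.3 after sulfasalazine. Of these, Vil1, Lct and Muc2 stayed at or below 0.07 FPKM in every library, so nearly all of that sum came from the other marker. Kupffer cell markers summed to 55.7 to 167 FPKM in the controls and 86.4 to 96.1 after sulfasalazine. Stellate cell markers summed to 66.2 to 105 FPKM in the controls and 49.2 to 65.1 after sulfasalazine, without overlap. All 7 tested ones had a log2 fold change below 0, with a median of -0.41, and 0 were called. All 7 were lowest in sulfasalazine mouse 2, as 15.4% of all tested loci were. In whole liver RNA, fewer cells of a type and less RNA per cell cannot be told apart. The labels do not say whether same-numbered mice belong together, and the p-values compare a group difference with the spread among these mice.

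Cyp3a11 made up most of the family's signal and ran higher on average after sulfasalazine, but the groups overlapped. Its level was 713, 948 and 1237 FPKM in the 3 control mice and 1812, 1087 and 1028 FPKM in the 3 treated mice. One treated mouse stood above every control, and the other 2 fell between the controls' second and highest values. The means were 966 ± 262 and 1309 ± 436 FPKM (SD, n = 3 each), a 1.36-fold ratio. The log2 fold change on the log2(FPKM + 1) scale was 0.43 (SE 0.31, 95% interval -0.32 to 1.17), with an adjusted p of 0.819 by limma, so the gene was not called. Leaving out sulfasalazine mouse 1 took the log2 fold change to 0.17, and leaving out control mouse 3 took it to 0.62. The gene stayed among the most abundant transcripts of the liver, at rank 11 to 48 of the annotated loci in the 6 libraries.

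**Figure D1:**
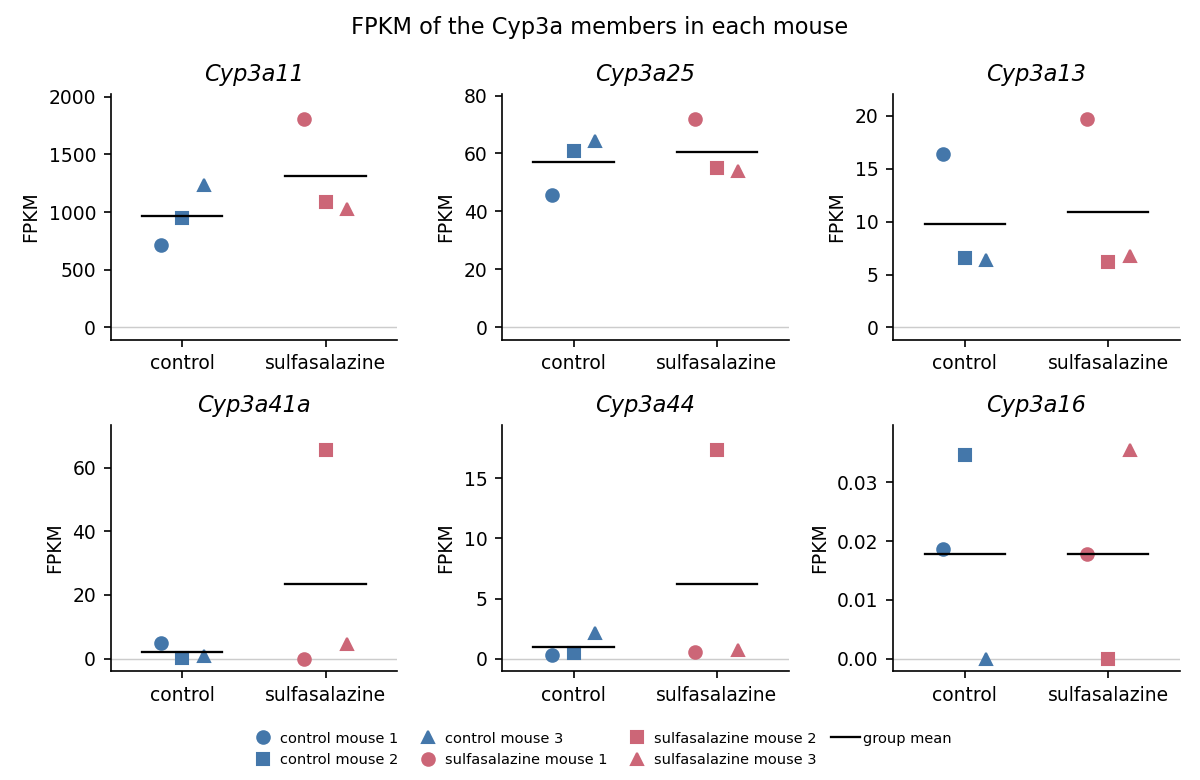
FPKM of each Cyp3a member in the 6 mice, 1 panel per gene with its own linear axis; symbols give the mouse number, colours the group, and the black lines the group means. Cyp3a11 overlaps between groups at 713 to 1237 FPKM in controls and 1028 to 1812 in treated mice, and the means of Cyp3a41a and Cyp3a44 after sulfasalazine are set by mouse 2, at 65.6 and 17.4 FPKM.

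Of the 6 members, 4 passed the filter of at least 1 FPKM in at least 3 libraries and 0 of these 4 were called, where 0.0167% of all tested loci were. None of the 4 had an unadjusted p under 0.05, which 7.51% of tested loci had, and none separated the groups completely, as 13.2% of tested loci did, 6.71% upward and 6.46% downward. The fitted log2 fold change was above 0 for all 4, with a median of 0.25, beside 49.6% of all tested loci above 0 and a median of -0.0021. Cyp3a16 and Cyp3a44 did not pass the filter and are described by their values.

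The summed level of the 6 members was 780, 1016 and 1310 FPKM in the controls and 1904, 1231 and 1094 FPKM after sulfasalazine. The sum overlapped between groups, as Cyp3a11 did. The means were 1036 ± 266 and 1410 ± 433 FPKM (SD, n = 3 each), a log2 ratio of means of 0.45. Cyp3a11 supplied 91.4% to 94.4% of the sum in the controls and 88.3% to 95.1% in the treated mice, and was the highest member in 6 of 6 libraries. Without Cyp3a11, the sum was 67.4, 68.0 and 73.8 FPKM in the controls and 92.4, 144 and 66.1 FPKM in the treated mice. That remainder overlapped too, with treated mice 1 and 2 above every control and mouse 3 below every control.

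**Figure D2:**
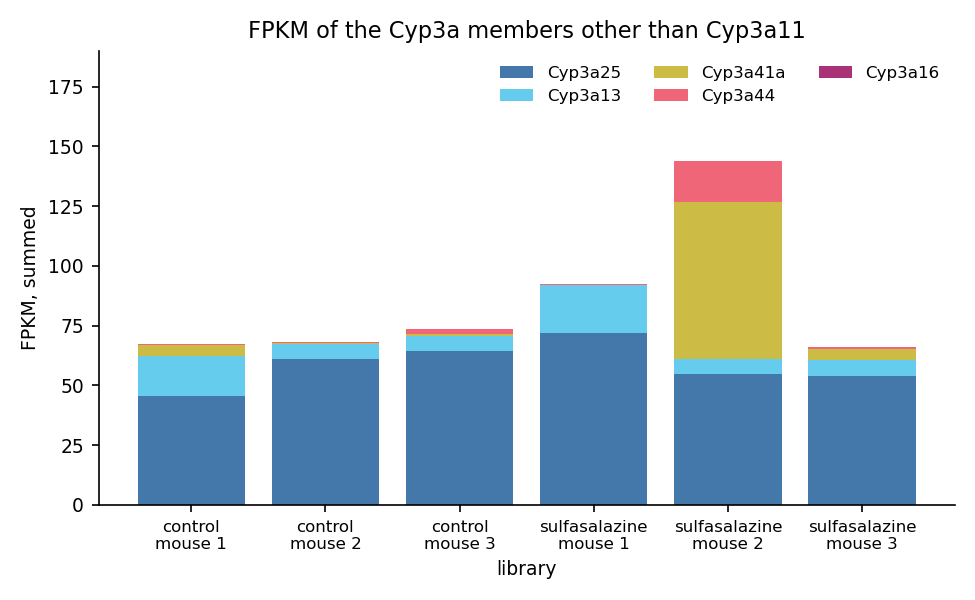
Stacked FPKM of the 5 members other than Cyp3a11 in each library, on a linear axis from 0. The bars reach 66.1 to 92.4 FPKM except in sulfasalazine mouse 2, where Cyp3a41a and Cyp3a44 lift it to 144; the Cyp3a16 share, below 0.04 FPKM, is too thin to see.

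Cyp3a25, the next most abundant member in 5 of 6 libraries, overlapped between the groups. Its level was 45.7, 60.9 and 64.4 FPKM in the controls and 72.0, 54.9 and 54.0 FPKM after sulfasalazine. The highest value was in sulfasalazine mouse 1 and the lowest in control mouse 1. The log2 fold change was 0.08 (SE 0.20, 95% interval -0.40 to 0.56, adjusted p 0.942 by limma). Its sign turned without control mouse 1, to -0.07, and without sulfasalazine mouse 1, to -0.05. The ratio of Cyp3a11 to Cyp3a25 in FPKM was 15.6, 15.6 and 19.2 in the controls and 25.1, 19.8 and 19.0 in the treated mice.

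Cyp3a13, which lies outside the cluster, varied more within the groups than between them. Its level was 16.4, 6.56 and 6.41 FPKM in the controls and 19.8, 6.15 and 6.76 FPKM after sulfasalazine. Mouse 1 of each group was high and the other 4 mice sat between 6.15 and 6.76 FPKM. The means were 9.79 ± 5.73 and 10.9 ± 7.69 FPKM (SD, n = 3 each). The log2 fold change was 0.08 (SE 0.53, 95% interval -1.20 to 1.36, adjusted p 0.984 by limma), and it ran from -0.41 to 0.49 as mice were left out in turn. Levels of Cyp3a25 and Cyp3a13 did not overlap in any mouse, at 45.7 to 72.0 and 6.15 to 19.8 FPKM, so their order was the same in all 6 libraries.

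Cyp3a41a was at 65.6 FPKM in 1 treated mouse and at 4.94 FPKM or less in the other 5 mice. It stood at 4.94, 0.140 and 0.771 FPKM in the controls, and was listed at 0 in sulfasalazine mouse 1, with 65.6 and 4.57 FPKM in mice 2 and 3. The log2 fold change was 1.65 (SE 1.54, 95% interval -2.10 to 5.40, adjusted p 0.862 by limma) with all mice. Without sulfasalazine mouse 2 it was 0.04, and without mouse 1, the library listed at 0, it was 3.07 with an adjusted p of 0.709. It passed the filter through 1 control and 2 treated libraries. In sulfasalazine mouse 2 it outranked Cyp3a25, and in the other 5 mice it stayed below Cyp3a13.

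Its near-identical neighbour Cyp3a41b followed it in every mouse. The coding sequences of the pair are 99.9% identical, with an edit distance of 2 over 1512 bases, and 90.8% of 100-base windows of the Cyp3a41a transcript also occur in another Cyp3a transcript. The division of fragments between them is therefore uncertain. Cyp3a41b stood at 3.56, 0.0917 and 0.632 FPKM in the controls and at 0, 56.5 and 3.93 FPKM after sulfasalazine. Summing both gave 8.49, 0.232 and 1.40 FPKM against 0, 122 and 8.50 FPKM, a log2 fold change of 1.79 that was not called (adjusted p 0.869 by limma).

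Cyp3a44, whose coding sequence is 95.8% identical to that of Cyp3a41a, had its highest level in the same mouse. It stood at 0.326, 0.451 and 2.15 FPKM in the controls and at 0.549, 17.4 and 0.679 FPKM in the treated mice. Only 2 libraries reached 1 FPKM, so it was not tested, and the difference of the mean log2(FPKM + 1) values was 0.99. With the filter lowered to 0.1 FPKM its adjusted p was 0.895 by limma. Of its 100-base windows, 2.79% occur in another Cyp3a transcript, fewer than for Cyp3a41a. Cyp3a44 and Cyp3a41a overlapped across the 6 mice, so their order is not settled by these values. Cyp3a16 stood at 0.0187, 0.0347 and 0 FPKM in the controls and at 0.0179, 0 and 0.0355 FPKM after sulfasalazine. That is at most about 1 fragment per library by the rough step estimate, and no difference was detectable at this level.

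The mouse with high Cyp3a41a and Cyp3a44 was also high in other female-biased liver genes, a set of 15 genes at 14 loci. Their summed level was 46.6, 39.4 and 95.1 FPKM in the controls and 83.8, 337 and 166 FPKM in the treated mice. Of the 14 loci, 12 were highest in sulfasalazine mouse 2, and of the 8 tested ones 7 were, where 21.0% of all tested loci had their highest value in that library. The same library was also the highest for 6 of 9 tested markers of the pericentral zone and 7 of 17 tested electron donors and heme enzymes. It was the highest too for 13 of 31 tested PXR and CAR targets, a list that shares Cyp2b9, Cyp2b13 and Cyp2a4 with the female-biased genes. None of the 8 tested female-biased loci was called, and their median log2 fold change was 1.31. Cyp2c39, a P450 with a log2 fold change of 1.59 (adjusted p 0.301 by limma), stood at 18.5, 19.2 and 33.9 FPKM in the controls and 50.3, 92.7 and 76.8 FPKM in the treated mice. Cyp2b9, another P450, stood at 2.52, 1.86 and 12.9 against 5.89, 60.5 and 28.5 FPKM, so its groups overlapped. The sulfotransferase Sult3a1, which missed the filter and has no p, is named as a locus close to Cyp3a41a in its levels over the mice. It stood at or below 0.154 FPKM in the controls and at 0.194, 29.1 and 0.539 FPKM in the treated mice.

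Most male-biased genes were lowest in the same mouse. The 16 loci of that set summed to 3814, 4493 and 2610 FPKM in the controls and 3489, 1602 and 2512 FPKM after sulfasalazine, and 10 of 15 tested loci had their lowest value in sulfasalazine mouse 2, against 15.4% of all tested loci. None of the 15 was called, and 13 had a log2 fold change below 0, with a median of -0.29. Elovl3, a fatty acid elongase, stood at 8.57, 10.2 and 9.55 FPKM in the controls and 3.97, 5.71 and 1.72 FPKM after sulfasalazine, without overlap (log2 fold change -1.21, adjusted p 0.467 by limma). Its lowest value was in sulfasalazine mouse 3, and mouse 2 was the highest of the treated mice. Without mouse 2 its log2 fold change was -1.50. The Y-linked genes Ddx3y, Eif2s3y, Kdm5d and Uty, chosen after their values were seen, were at 1.02 FPKM or more in all 6 libraries and Xist was at 0.183 FPKM or less, matching the male label of every mouse. The part of this mouse's sex-biased, pericentral, heme and electron donor, or PXR and CAR target genes in the levels of Cyp3a41a and Cyp3a44 was not tested.

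**Figure D3:**
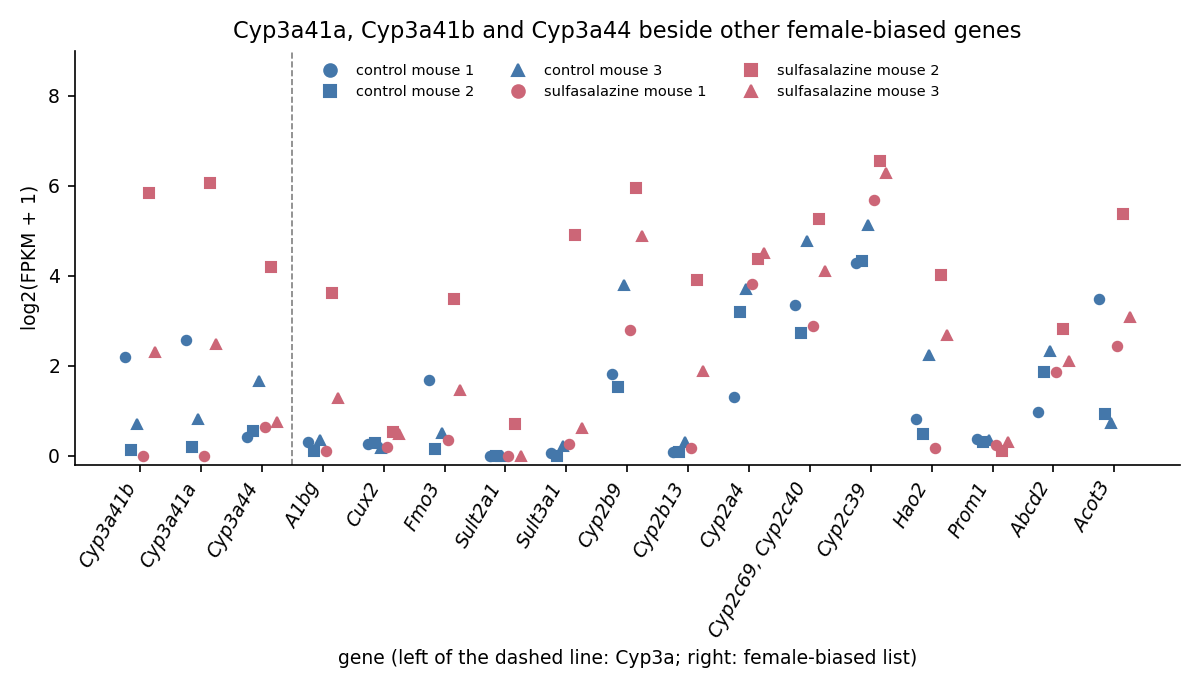
log2(FPKM + 1) in each mouse for Cyp3a41b, Cyp3a41a and Cyp3a44 (left of the dashed line) and for the 14 female-biased loci (right), with symbols for mouse number and colours for group. Sulfasalazine mouse 2 is the highest point at 12 of the 14 loci and at the 3 Cyp3a genes; the locus marked Cyp2c69, Cyp2c40 pools both genes.

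Among the other Cyp3a genes, Cyp3a59 was lower in every treated mouse than in every control, but was not called. It stood at 8.03, 10.3 and 10.1 FPKM in the controls and 7.38, 7.32 and 6.34 FPKM after sulfasalazine. The means were 9.45 ± 1.24 and 7.01 ± 0.585 FPKM (SD, n = 3 each), with a log2 fold change of -0.38 (SE 0.13, unadjusted p 0.0291, adjusted p 0.612 by limma). Its coding sequence is 97.5% identical to that of Cyp3a25, which was not called, and 5.61% of its 100-base windows occur in another Cyp3a transcript. Cyp3a57 stayed at or below 0.0539 FPKM in every library.

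None of the 5 tested receptor genes that drive Cyp3a transcription was called. Nr1i2, encoding PXR, stood at 11.1, 10.8 and 11.7 FPKM in the controls and 7.63, 14.1 and 10.4 FPKM after sulfasalazine, and the treated mice lay on both sides of the controls. Its log2 fold change was -0.10 (SE 0.21, adjusted p 0.937 by limma). Nr1i3, encoding CAR, stood at 19.5, 18.1 and 12.2 FPKM against 13.1, 18.3 and 20.1 FPKM, with overlapping groups (log2 fold change 0.05, adjusted p 0.977). Rxra, the heterodimer partner, had a log2 fold change of -0.20 (adjusted p 0.883). The lowest PXR message was in sulfasalazine mouse 1, the mouse with the highest Cyp3a11. Among the controls, mouse 3 had the highest value of both, at 11.7 FPKM for Nr1i2 and 1237 FPKM for Cyp3a11.

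Of 18 further regulators of Cyp3a genes, 0 were called, 8 had a log2 fold change above 0 and 10 below, with a median of -0.06. Hnf4a, a hepatocyte transcription factor that acts on Cyp3a promoters, stood at 75.3, 83.7 and 68.3 FPKM in the controls and 93.9, 93.6 and 86.6 FPKM after sulfasalazine, without overlap (log2 fold change 0.27, adjusted p 0.730 by limma). Stat5b, which carries the growth hormone signal behind sex-biased liver genes, stood at 8.58, 8.14 and 9.02 against 4.41, 5.21 and 7.42 FPKM, without overlap (log2 fold change -0.54, adjusted p 0.579). Cebpa, a liver transcription factor, was listed at 0 in control mice 1 and 2 and at 69.6 FPKM in control mouse 3. The treated mice stood at 62.4, 91.6 and 82.2 FPKM, with overlap (log2 fold change 4.25, adjusted p 0.648 by limma). Whether the 2 zeros reflect absent RNA or the way loci were assembled was not tested.

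Among other PXR and CAR targets, Cyp2c55 rose. Of 36 listed genes, 31 loci were tested, 1 was called higher and 0 lower, where 0.0167% of all tested loci were called. The log2 fold change was above 0 for 27, beside 49.6% of all tested loci, and the median was 1.40, beside -0.0021. In 19 of the 31, every treated mouse stood above every control, as 6.71% of all tested loci did. An unadjusted p under 0.05 by limma was found for 19, and for 7.51% of all tested loci. The list was chosen with earlier results of these data known, so these counts are not an independent finding. The called gene, Cyp2c55, a P450 of the Cyp2c family, rose from 0.891, 0.543 and 0.880 FPKM to 26.4, 16.8 and 20.9 FPKM (log2 fold change 3.64, SE 0.19, adjusted p 0.0120 by limma). That call was lost without control mouse 1 (adjusted p 0.057 by limma) and without sulfasalazine mouse 3 (adjusted p 0.063). Cyp2b10, the usual CAR marker, stood at 27.2, 9.76 and 19.4 FPKM in the controls and 61.6, 58.1 and 68.5 FPKM in the treated mice, without overlap, but was not called (log2 fold change 1.79, adjusted p 0.281). Cyp2c29 stood at 160, 161 and 152 FPKM against 388, 461 and 432 FPKM, without overlap (log2 fold change 1.43, adjusted p 0.0524), at a locus that also holds Cyp2c53-ps. The glutathione transferases Gstm3 and Gsta1 had log2 fold changes of 3.77 and 3.43, each with an adjusted p of 0.0524.

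**Figure D4:**
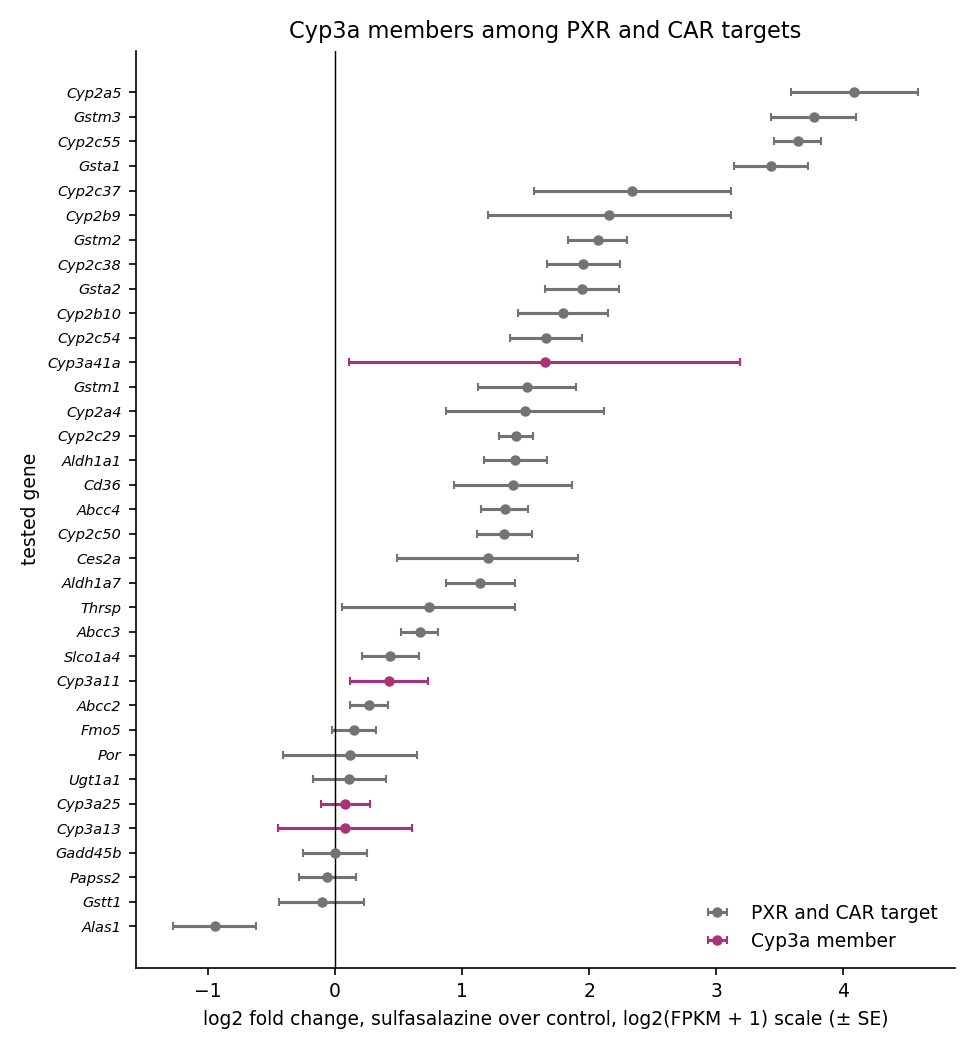
log2 fold change (sulfasalazine over control, log2(FPKM + 1) scale) of the 31 tested PXR and CAR targets and the 4 tested Cyp3a members, ordered by size; points are limma estimates and bars are ± SE. Cyp3a11 at 0.43, Cyp3a25 at 0.08 and Cyp3a13 at 0.08 lie below most targets, and Cyp3a41a at 1.65 has the widest bar of those drawn, SE 1.54.

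The difference between the response of Cyp3a11 and those of 3 of these targets was tested per mouse, as the log2(FPKM + 1) of the target minus that of Cyp3a11. These 3 targets came from a list chosen with earlier results of these data known, so the test gives no independent evidence of a difference. The difference for Cyp2c55 was larger after sulfasalazine by 3.21 on the log2 scale, and all 3 treated mice stood above every control. For each gene the exact two-sided permutation test over 3 against 3 mice cannot give a p under 0.1, so it could not pass 0.05 whatever the values. The exact test gave p = 0.1 for Cyp2c55, whose differences had an SD of 0.438 in the controls and 0.259 in the treated mice. For Cyp2b10 it was larger by 1.37 and for Cyp2c29 by 1.00, each with p = 0.2 in the exact test and 2 of 3 treated mice above every control. Adjusted over the 3 tests, every p was 0.2. These p-values do not show that the responses were alike, and no other test of the difference was run.

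Of 17 tested electron donors and heme enzymes that P450 activity draws on, 0 were called, 11 had a log2 fold change above 0 and 6 below, with a median of 0.08. Por, which passes electrons to all microsomal P450 enzymes, stood at 160, 37.0 and 58.2 FPKM in the controls and 91.3, 77.8 and 63.2 FPKM after sulfasalazine, so the controls spanned every treated value. Alas1, the first enzyme of heme synthesis and itself a PXR and CAR target, stood at 66.7, 104 and 98.7 against 39.4, 70.5 and 33.4 FPKM (log2 fold change -0.95, adjusted p 0.600 by limma), with overlap by 1 treated mouse. Blvrb, a biliverdin reductase, had a log2 fold change of 0.73 (adjusted p 0.276), and Hmox1, the heme oxygenase, -0.45 (adjusted p 0.867).

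The loci whose level followed each member most closely over the 6 mice were sought among 3674 annotated loci with a mean of at least 5 FPKM, by the root mean square difference of centred log2(FPKM + 1). The nearest to Cyp3a11 were Vapa, Zkscan1 and Herpud1, at 0.119, 0.148 and 0.148, where Cyp3a11 itself varied by 0.406. The nearest to Cyp3a25 were Nudt14, Tax1bp1 and Dcaf12, at 0.0689, 0.0703 and 0.0792 against its own 0.205. Cyp3a13 lay nearest to Tprgl, Tmem56 and Pnpla2, at 0.278, 0.299 and 0.302 against its own 0.641. Cyp3a41a lay nearest to Cyp3a41b at 0.122, followed at a distance by Sult3a1 at 0.949 and Acot3 at 0.967, against its own 2.07. Outside sulfasalazine mouse 2, Cyp3a41b and Sult3a1 were at or below 3.93 and 0.539 FPKM. Acot3 stood at 10.2, 0.894 and 0.656 FPKM in the controls and at 4.38, 40.1 and 7.47 FPKM in the treated mice. Cyp3a41b, Sult3a1 and Acot3 thus each reached the mean of 5 FPKM only through sulfasalazine mouse 2, where Cyp3a41a was also highest. Of the 100-base windows of Cyp3a41b, 88.2% occur in another Cyp3a transcript. The family sum followed Cyp3a11 at 0.0363. These are descriptions over 6 mice.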

How the data were processed

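Liver RNA of 3 control and 3 sulfasalazine mice was sequenced after ribosomal RNA depletion, from RNA with a RIN above 7.0 per the labels' protocols. The authors deposited 1 table that holds FPKM for each locus. The submitters' processing notes name StringTie, Bowtie2, cutadapt and FastQC and the build GRCm38.p5, and versions are not given in the sources used here. Of 42612 loci, 24822 carry an Ensembl transcript, and 24750 were matched to GENCODE M21 for coordinates. No source used here says how fragments were divided among near-identical Cyp3a copies.

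Values were tested as log2(FPKM + 1), a scale that understates the change of low genes, with limma 3.58.1 in R 4.3.3 (mean-variance trend, all 6 libraries, no covariates), over the 11969 loci that reached 1 FPKM in 3 or more libraries, with Benjamini-Hochberg adjustment at 0.05. The step was tested on simulated data. Single-gene contrasts used exact permutation in scipy 1.17.1. The members and lists were chosen with earlier results of these data known. Genes named are the members, the other Cyp3a genes, fixed markers, the loci nearest a member in level, and up to 3 genes of a list with the smallest unadjusted p. Others are said to be chosen after their values were seen. Alternatives changed the pseudocount, filter, trend, loci, scaling, replicate block and libraries. Ugt1a9 was not analysed here, and the values of 1 further listed gene are not reported here.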

Additional observations from a re-analysis of the deposited data

How the results depend on the processing

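No Cyp3a member was called under any alternative in which it was tested: 17 for Cyp3a11, Cyp3a13 and Cyp3a25, 16 for Cyp3a41a, which missed the 5 FPKM filter, 3 for Cyp3a44 and 1 for Cyp3a16. Cyp3a11 kept a log2 fold change above 0 in all 17, between 0.17 and 0.62. The log2 ratio of the family sum ran from 0.17 to 0.65 as mice were left out. Counts over all loci were less stable. The 2 loci called higher became 6 with FPKM summed per gene name, 1 with a 0.1 FPKM filter, 6 with a 5 FPKM filter, 0 with no filter, 23 with no trend, 9 over annotated loci, and 1 with a pseudocount of 0.01 or 0.1, and ran from 1 to 8 as mice were left out. The 0 called lower became 1 with the 5 FPKM filter, 22 with no trend and 3 over annotated loci, and ran from 0 to 6. The 1 PXR and CAR target called higher became 3 with summed names, 4 with the 5 FPKM filter, 0 with no filter, 5 with no trend and 4 over annotated loci, and ran from 0 to 2 (alternatives for this count were added after seeing the data, as was the sum of Cyp3a41a and Cyp3a41b). With the replicate block, 0 loci were called higher and 0 targets. Same-numbered mice deviated from their group means with correlations of 0.0097, -0.067 and -0.022. With 3 mice per group, these values cannot settle whether such mice belong together. Cyp2c55 lost its call with no filter (adjusted p 0.064 by limma), with the block (0.094) and without control mouse 1 (0.057) or sulfasalazine mouse 3 (0.063). Signs turned only as single mice were left out, with log2 ranges of -0.41 to 0.49 for Cyp3a13, -0.065 to 0.18 for Cyp3a25, -0.30 to 0.10 for Nr1i2, -0.14 to 0.22 for Nr1i3, -0.38 to 0.031 for Rxra, -0.33 to 0.71 for Por and -0.013 to 0.30 for Rxrg. Why these values shift was not tested. By the rough step estimate, Cyp3a16 stood at about 1 fragment or fewer per library, too few to show a difference.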

Other observations

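A further locus carries the name Cyp3a44 but no Ensembl transcript, and did not go with the annotated one. It stood at 0, 0.430 and 13.8 FPKM in the controls and at 3.71, 0.472 and 0.0663 FPKM after sulfasalazine, so its highest value was in control mouse 3, where the annotated Cyp3a44 locus stood at 2.15 FPKM. The pseudogene Cyp3a63-ps was listed at 0 in 5 libraries and at 0.327 FPKM in sulfasalazine mouse 2. Markers of the pericentral zone, where Cyp3a11 is mostly expressed, summed to 2081 to 4453 FPKM in the controls and 1835 to 2714 after sulfasalazine, and 0 of 9 tested were called. Of 10 periportal markers, 0 were called and 9 had a log2 fold change below 0, with a median of -0.24, where 49.6% of all tested loci were above 0. The 10 hepatocyte markers share Cps1, Ass1 and Pck1 with them, and 8 of these 10 were below 0, with a median of -0.19.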
